A study of Mus musculus with 2 samples.

Results

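Sites of open chromatin that lie very far from the start of any protein-coding gene were described here in whole mouse embryos of 11 days. The assay was DNase-seq, in which the enzyme DNase I cuts DNA that nucleosomes leave exposed and the cut ends are sequenced. The samples form 1 group of 2 biological replicates of the B6NCrl strain, both from embryos of mixed sex that were pooled, with no treatment, mutation or second stage, so there was no contrast between conditions to test. Each replicate came as a list of 150-bp peaks, 204697 in replicate 1 and 231103 in replicate 2. A replicate 1 peak counted as shared if 1 bp or more of it was covered by the replicate 2 list, which gave 158585 shared peaks on chromosomes 1 to 19. The sites of interest were the 3492 shared peaks whose midpoint lay over 500 kb from every transcription start site (TSS) of a protein-coding gene in GENCODE M21. They made up 2.20% of the shared peaks (Wilson 95% interval 2.13 to 2.28%). Read depth is unknown, because the lists hold intervals and not reads, and all intervals given on shares cover counting error only. A whole embryo mixes many tissues, so a site open in few cells and a site weakly open in many cannot be told apart.

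Gene deserts are long tracts of the genome without protein-coding genes. Many flank genes that control development, and enhancers within them can act on a very distant promoter by looping of the chromatin. Enhancers are short clusters of binding sites for transcription factors, and their DNA is sensitive to DNase I when such factors are bound. CTCF, a zinc finger protein that halts cohesin, marks the ends of many such loops and leaves a strong DNase I footprint at its own binding sites.

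Sequences of desert peaks are shown first, because results given further on compare their motif content with that of the sequence around them. All are from the GRCm38 (mm10) reference, plus strand, 5′ to 3′. Capitals mark matches on either strand to any of 9 motifs: the CTCF core, NFI and EBF by name, the RFX motif GTTGCCAT, the E-boxes CAGCTG and CAGATG, the MEIS motif TGACAG, the nuclear receptor motif AGGTCA and the TEAD motif GGAATG. Of the 10 members ranked highest by deposited score, averaged over the replicates, those between Pou3f2 and Mms22l and in Lsamp matched none and are not shown. The first 4 peaks are others of these 10, each with a match, and the fifth is the member farthest from a TSS. They lie at chr1:81593676-81593825, chr10:56921436-56921585, chr1:41390276-41390425, chr13:71458616-71458765 and chr14:91151556-91151705, each between the pair of genes that names it and outside every annotated protein-coding or long noncoding gene.
Nyap2-Gm9747: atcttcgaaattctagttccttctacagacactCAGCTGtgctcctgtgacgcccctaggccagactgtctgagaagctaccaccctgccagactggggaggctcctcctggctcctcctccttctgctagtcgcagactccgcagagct
Gja1-Hsf2: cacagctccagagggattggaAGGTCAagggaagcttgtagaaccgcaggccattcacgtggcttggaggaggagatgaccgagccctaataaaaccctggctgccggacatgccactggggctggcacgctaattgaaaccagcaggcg
Tmem182-Pou3f3: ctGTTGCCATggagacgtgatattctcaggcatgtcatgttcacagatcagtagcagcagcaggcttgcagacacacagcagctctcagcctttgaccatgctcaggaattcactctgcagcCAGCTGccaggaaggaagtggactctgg
Adamts16-Irx1: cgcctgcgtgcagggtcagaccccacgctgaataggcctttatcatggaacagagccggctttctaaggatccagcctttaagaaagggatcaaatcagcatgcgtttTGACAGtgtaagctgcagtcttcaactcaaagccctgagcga
Pcdh20-Pcdh9: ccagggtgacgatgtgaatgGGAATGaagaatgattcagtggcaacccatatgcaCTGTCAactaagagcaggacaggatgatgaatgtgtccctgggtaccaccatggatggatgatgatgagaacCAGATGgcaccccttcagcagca

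On the deposited scale, which runs up to 150, the Nyap2-Gm9747 peak had 117 in replicate 1 and 124 in replicate 2. It lay 516 kb from the TSS of Nyap2. The Gja1-Hsf2 peak scored 116 and 119 and lay 542 kb from Gja1, which encodes the gap junction protein connexin 43. The Tmem182-Pou3f3 peak scored 108 and 119 and lay 585 kb from Tmem182, with Pou3f3, a POU transcription factor of neural progenitors, on its other side. The Adamts16-Irx1 peak also scored 108 and 119 and lay 501 kb from Irx1, an Iroquois homeobox gene. All of these were in the best-scoring 7.46% of replicate 1 peaks and the best 6.06% of replicate 2 peaks. The Pcdh20-Pcdh9 peak, 2680 kb from the nearest protein-coding TSS, scored 51 and 59, where shared peaks at 1 to 500 kb had medians of 47 and 56, and had matches to the TEAD, MEIS and CAGATG motifs. Its nearest shared peak was 100.7 kb away and the nearest long noncoding RNA (lncRNA) start 460 kb away.

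Matches to 2 longer motifs were seldom found outside peaks, and the best-ranked members that hold them are shown with 15 bases on each side, in the same orientation. These members were chosen for their match after their values were seen. The first 4 hold the CTCF core, which makes up the capitals, and the last 3 hold the NFI motif, a palindrome bound by nuclear factor I proteins. The CTCF sites are at chr8:89571990-89572031, chr14:71670598-71670639, chr7:95489828-95489869 and chr4:67477566-67477607, and the NFI sites at chr15:62903169-62903213, chr14:93009340-93009384 and chr1:29732102-29732146.
Sall1-Tox3: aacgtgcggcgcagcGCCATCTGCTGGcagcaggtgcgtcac
Gfra2-Gm9195: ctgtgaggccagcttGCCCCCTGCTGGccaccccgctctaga
Fam181b-Tenm4: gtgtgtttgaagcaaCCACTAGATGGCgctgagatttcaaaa
Tlr4-Brinp1: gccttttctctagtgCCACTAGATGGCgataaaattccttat
Myc-Gsdmc: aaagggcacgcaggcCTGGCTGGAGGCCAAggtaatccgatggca
Pcdh20-Pcdh9 NFI site: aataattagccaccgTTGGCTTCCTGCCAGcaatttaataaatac
Gm597-Phf3: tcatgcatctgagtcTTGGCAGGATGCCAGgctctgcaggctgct

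The 4 CTCF-bearing members scored 96, 92, 89 and 84 in replicate 1 and 100, 103, 101 and 99 in replicate 2, in the order shown. Their motif match lay 0 to 22 bp from the peak's centre. The 3 NFI-bearing members scored 94, 63 and 54 in replicate 1 and 104, 68 and 62 in replicate 2. All 7 scored above the upper quartile of the members, 47 in replicate 1 and 56 in replicate 2. The 23 members with an NFI match had medians of only 32 and 41, so the 3 shown are not typical of them.

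Open chromatin was sparse in the deserts. Sequence over 500 kb from every protein-coding TSS came to 232.3 Mb, which is 9.69% of the assembled sequence of chromosomes 1 to 19, and held 15.03 shared peaks per Mb. Between 1 and 500 kb from a TSS there were 57.6 per Mb. The decline with distance was steady: shared peaks numbered 73.1 per Mb at 1 to 10 kb, 46.6 at 100 to 250 kb, 33.1 at 250 to 500 kb, 17.7 at 500 to 1000 kb and 8.94 beyond 1000 kb. Each replicate list gave the same order. Desert density was 20.7 peaks per Mb in the replicate 1 list and 24.8 in the replicate 2 list, a mean of 22.8 ± 2.96 (SD, n = 2), against 79.0 ± 7.54 at 1 to 500 kb. Both lists thus put desert density below that of nearer sequence, by more than the spread between replicates. With 1 group of 2 samples no test was made.

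The 500-kb limit did not mark a step. The 138 shared peaks from 490 to 500 kb, just outside the rule, stood at 22.9 per Mb with median scores of 39 and 46.5 in replicates 1 and 2. The 129 members from 500 to 510 kb, just inside it, stood at 21.9 per Mb with medians of 41 and 50. Members lay at a median of 676 kb from the nearest protein-coding TSS, with an upper quartile of 885 kb, and 635 beyond 1000 kb.

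**Figure D1:**
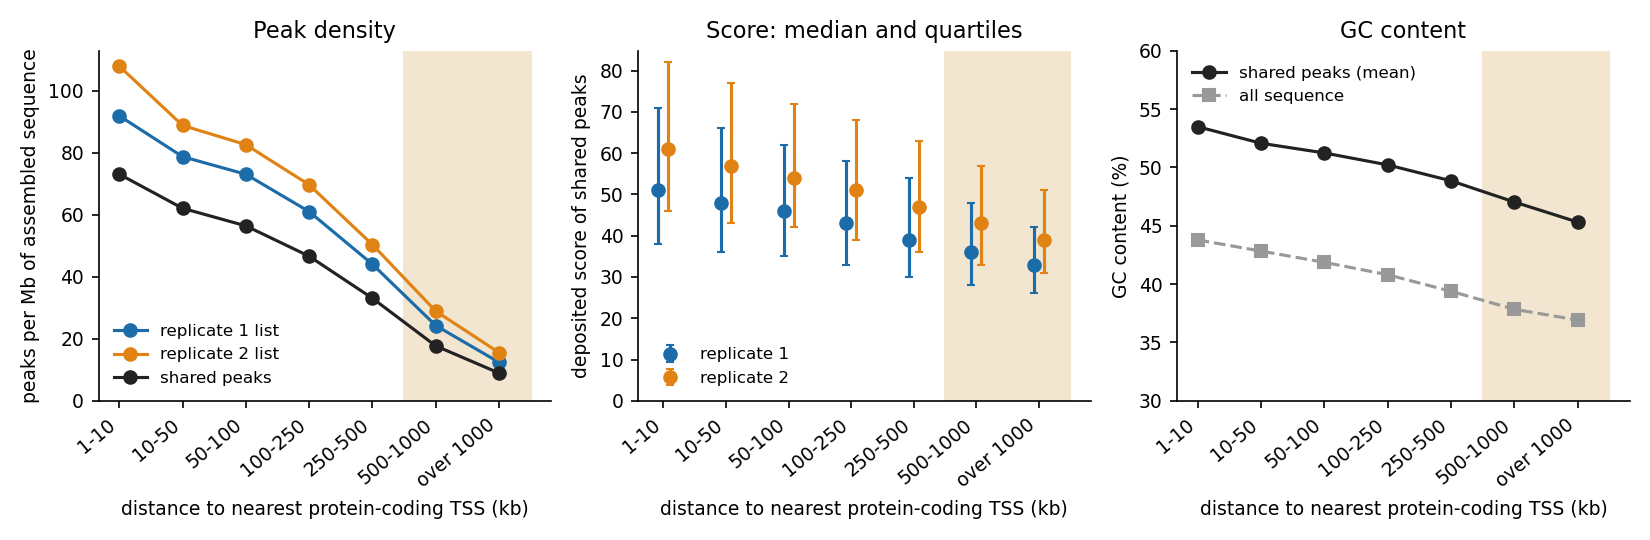
Peaks by distance to the nearest protein-coding TSS (horizontal axis, kb; shaded bins are the deserts): peaks per Mb of assembled sequence in each replicate list and in the shared set, deposited scores of shared peaks (points are medians, bars the quartiles), and GC content of shared peaks and of all sequence in the bin (axis from 30%). All 3 measures fall from bin to bin, and shared peaks drop from 73.1 per Mb at 1 to 10 kb to 8.94 beyond 1000 kb.

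Desert peaks also scored lower. The score is the authors' own, a whole number with an unknown zero point, so it serves to rank peaks within a list and not as a ratio of signal. Members had a median score of 35 in replicate 1 (quartiles 27 and 47, range 4 to 127) and 42 in replicate 2 (32 and 56, range 4 to 140). Shared peaks at 1 to 500 kb had medians of 47 and 56, and those at 1 to 10 kb 51 and 61. Within the deserts the medians were 36 and 43 at 500 to 1000 kb and 33 and 39 beyond 1000 kb. Of the 3492 members, 1029 (29.5%, Wilson interval 28.0 to 31.0%) were in the better-scoring 50% of the replicate 1 list and 1200 (34.4%) in that of the replicate 2 list. Only 20 and 30 members reached the best 10%, and 0 reached the best 1% of either list. Replicate 1 and replicate 2 scores were related across the members with a Spearman rho of 0.86, against 0.91 at 1 to 500 kb. This describes peaks that share the same pair of libraries.

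Hotspots, the broader regions of raised cutting called in the same libraries, were narrower around desert peaks. The median width was 235 bp in replicate 1 and 261 bp in replicate 2, against 267 and 302 bp at 1 to 500 kb. The hotspot value, a −log10 q that stops at 100, was at that ceiling for 1094 members in replicate 1 (31.3%, Wilson interval 29.8 to 32.9%), where 47.5% of all shared peaks were. In replicate 2 the value was at the ceiling for 1357 members (38.9%, 37.3 to 40.5%), against 46.7% at 1 to 500 kb and 55.0% of all shared peaks. Beyond 250 kb the share hardly changed with distance. In replicate 1 it was 31.7% at 250 to 500 kb, 31.7% at 500 to 1000 kb and 29.6% beyond 1000 kb.

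Of the 4798 replicate 1 peaks in desert sequence, 3492 (72.8%) overlapped a replicate 2 peak, and 3504 of 5771 replicate 2 peaks (60.7%) overlapped a replicate 1 peak. For all peaks of chromosomes 1 to 19 these shares were 79.5% and 70.3%. Since the overlap is part of the rule, the counts only describe the choice. Peaks found in 1 list only had lower scores, a median of 23 in replicate 1 (1306 peaks) and 27 in replicate 2 (2267 peaks).

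At equal score, desert peaks overlapped at least as often as nearer ones. For replicate 1 peaks scoring 30 to 39, 82.8% of 1155 desert peaks were found again (Wilson interval 80.5 to 84.8%) and 70.3% of 37329 peaks at 1 to 500 kb (69.8 to 70.7%). At 20 to 29 the shares were 57.9% and 49.9%, and at 40 to 49 they were 96.2% and 87.1%. Replicate 2 gave the same order: at 40 to 49, 85.1% of 905 desert peaks and 65.7% of 34299 nearer peaks were found again. The intervals overlapped at 70 and above in both lists, below a score of 20 in replicate 1 and below 30 in replicate 2. The deserts thus had the lower share over all scores, and a share as high or higher within each score class.

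**Figure D2:**
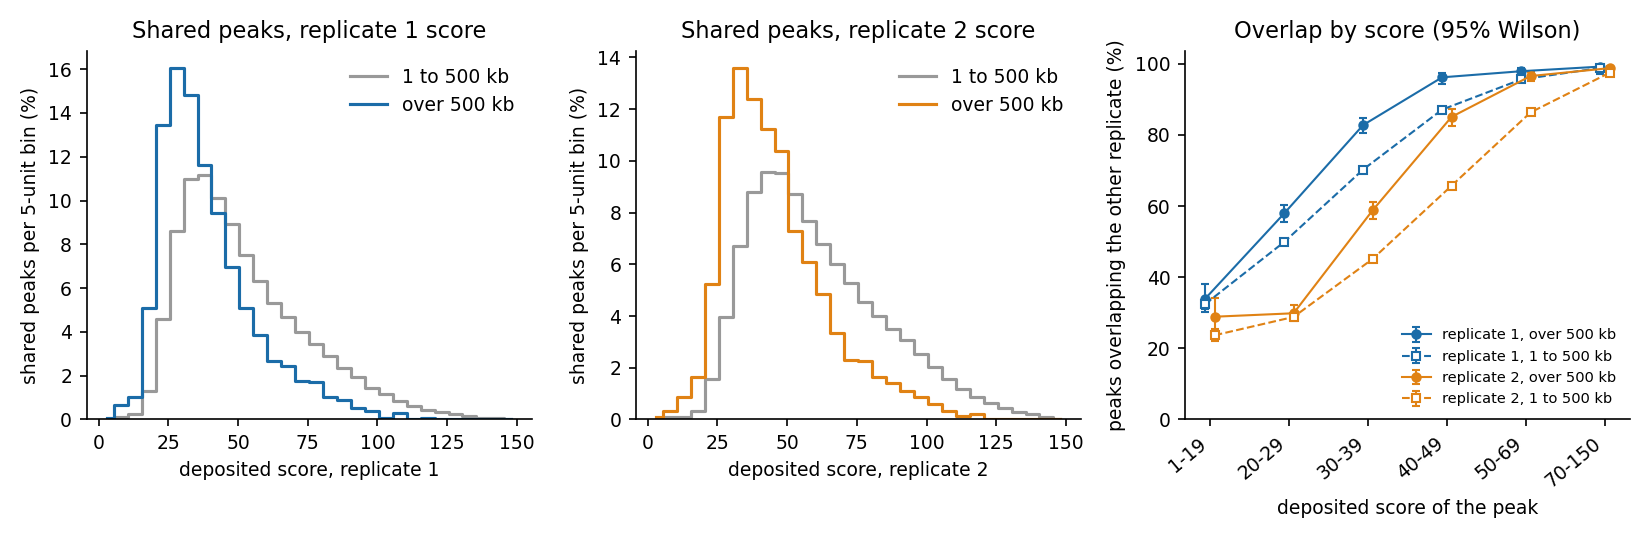
Left and middle: share of shared peaks (%) in each 5-unit bin of the deposited score in replicates 1 and 2, for members (coloured) and for shared peaks 1 to 500 kb from a TSS (grey). Right: share of all peaks of a list that overlap the other list (%), by score class, with Wilson 95% intervals. Member medians are 35 and 42 against 47 and 56, while at scores of 30 to 39 in replicate 1 the overlap was 82.8% in deserts and 70.3% nearer to genes.

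Most members lay outside annotated genes, but the name gene desert does not hold for all. By midpoint, 2943 (84.3%, Wilson interval 83.0 to 85.4%) were in no protein-coding gene, lncRNA gene or pseudogene. A further 372 (10.7%) lay in the body of a lncRNA gene, 167 (4.78%) in an intron and 3 in an exon of a protein-coding gene, and 7 in a pseudogene. At 1 to 500 kb, 47.3% of shared peaks were inside protein-coding genes, and at 250 to 500 kb 12.9%. No member beyond 1000 kb was inside one, which allows a share of up to 0.601% there by the Wilson interval.

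The 170 members inside protein-coding genes fell in 24 very long genes. Pcdh9, a protocadherin of cell adhesion, held 26, Gpc5, a glypican, 18, and Dcc, the netrin receptor of axon guidance, 16. Fhit, a gene at a common fragile site, also held 16. Lsamp, an adhesion protein of the limbic system, held 13, Sugct 13 and Csmd1 11, while 14 of the other 17 genes held 5 members or fewer. The intronic members scored a median of 34 and 40, near the 35 and 42 of those outside all genes. The best-ranked of them, in Lsamp at chr16:40968216-40968365, scored 109 and 119. None of the 9 motifs matched it, and its nearest shared peak lay 39540 bp away.

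Antigen receptor loci also count as desert under the rule, because the annotation gives their gene segments types of their own. There were 42 members (1.20%) within 500 kb of such a segment. All 28 members of the 758-kb Olfr1507-Dad1 stretch, at the T cell receptor alpha and delta locus, were among them, at 36.9 per Mb and median scores of 27 and 33.5. The immunoglobulin heavy chain locus between Adam6a and Zfp386 held 1 in 1504 kb. That was the lowest density, 0.665 per Mb, of the 148 desert stretches with at least 500 kb of assembled sequence. That single member scored 35 and 24. Scores in both stretches were thus at or below the desert medians of 35 and 42.

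Starts of lncRNA genes were few among the members. There were 59 members (1.69%, Wilson interval 1.31 to 2.17%) within 500 bp of a lncRNA TSS, against 2.45% of shared peaks at 1 to 500 kb, and 607 lay over 500 kb from every lncRNA TSS as well. The 59 at a lncRNA TSS scored higher, with medians of 42 and 49, and were richer in GC (53.3% against 46.6% for the other members). Rmst, a neural lncRNA, had a member at chr10:92162536-92162685, 150 bp from a start, that scored 93 and 105, and 10 members lay within the gene. The highest-ranked was at a start of Gm38584, between Arrdc4 and Nr2f2, with scores of 92 and 110. The member at Gm31378, between Marcks and Rfpl4b, scored 94 and 107. The farthest from protein-coding genes among the 10 best-ranked was at C130073E24Rik, 2073 kb from the nearest protein-coding TSS, with scores of 78 and 98. Sequences with the GC content and CpG density of CpG islands were rare: 22 members had over 60% GC and a CpG ratio over 0.6, of which 9 were within 500 bp of a lncRNA TSS. MicroRNA genes lay within 10 kb of 20 members (0.573%), against 0.814% of shared peaks at 250 to 500 kb and 2.26% at 1 to 500 kb.

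Desert sequence fell into 301 unbroken stretches, each named here by the protein-coding genes whose TSSs flank it. Members were found in 269 of them, 122 stretches held 10 or more, and 32 held none. The empty ones were short, with a median of 73.5 kb against 591 kb for the others, and 8 of them had a peak in the replicate 1 list and 16 in the replicate 2 list. The longest empty one, 442 kb between the cadherin genes Cdh10 and Cdh12, had 0 peaks in replicate 1 and 2 in replicate 2.

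Members were uneven over the stretches. The 10 with the most members held 602 of them (17.2%) in 9.08% of the desert sequence. Zeb2-Acvr2a on chromosome 2 had the most, 75 in 2697 kb, followed by Sel1l-Flrt2 with 72, Pcdh20-Pcdh9 with 70 and Nr2f1-Arrdc3 with 61. Kcnj2-Sox9 held 58, Slc10a2-Efnb2 57, Zfp608-Gramd3 56, Celf4-Pik3c3 52, Adgrl2-Adgrl4 51 and Slc4a3-Epha4 50. As background on some of the flanking genes, Zeb2 encodes a repressor needed in neural crest, Nr2f1 an orphan nuclear receptor of the forebrain, and Sox9 the master factor of cartilage. Flrt2, Efnb2 and Epha4 encode cell surface proteins of guidance. Among the others, Slc10a2 encodes a bile acid transporter, Slc4a3 an anion exchanger, Kcnj2 a potassium channel, Sel1l a protein of the degradation of misfolded proteins and Pik3c3 a lipid kinase.

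Stretches differed widely in density and in length, and the part of length in the densities was not tested. Over the 148 stretches of at least 500 kb, shared peaks ranged from 0.665 to 81.0 per Mb with a median of 11.2 (quartiles 6.07 and 21.8). Kcnj2-Sox9, 716 kb on chromosome 11, was the densest, with 111.7 peaks per Mb in the replicate 1 list, 115.9 in the replicate 2 list and 81.0 shared. The next were Arrdc4-Nr2f2 with 64.4 shared peaks per Mb, Slc4a3-Epha4 with 60.5, Tmpo-Nedd1 with 59.8 and Tmem182-Pou3f3 with 52.8. The densest 10 also included Marcks-Rfpl4b, Auts2-Castor2, Ttll7-Adgrl2, Fat4-Intu and, at 44.6, Pou3f2-Mms22l. Nr2f2 is the close relative of Nr2f1, Pou3f2 that of Pou3f3, and Fat4 is a giant cadherin of planar cell polarity. By contrast Pcdh20-Pcdh9, the longest stretch at 4414 kb, had 15.9 per Mb, near the middle of the range. The order of stretches held in both lists, with a Spearman rho of 0.95 between replicate densities over the 148. Density was higher where repeats were fewer (rho of -0.64 with the share of repeat-masked bases) and where GC was higher (rho of 0.47). These correlations describe stretches measured in the same pair of libraries.

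The shorter Zfp608-Gramd3 stretch on chromosome 18 stood apart. Its 56 members in 408 kb came to 137.3 per Mb, against 73.1 for shared peaks 1 to 10 kb from TSSs. Tmem38b-Zfp462 (95.6 per Mb) and Kcnj2-Sox9 (81.0) were among other stretches above 73.1. In the lists Zfp608-Gramd3 had 186.4 (replicate 1) and 169.2 (replicate 2), against 91.9 and 108 at 1 to 10 kb. Its members had median scores of 54 and 63.5, and the median distance from a member to the nearest shared peak was 430 bp. It also held 3 of the 10 best-ranked members, with the first of all at chr18:55549816-55549965. That peak scored 127 and 140, which put it in the best 3.64% and 1.25% of the lists, and lay within a hotspot 3840 bp wide. It was the 1 member of the stretch with a match to the CTCF core. The others scored 117 and 119, and 110 and 116. Zfp608 encodes a zinc finger protein, and Gramd3 a GRAM domain protein. A further member of the best 10, in Celf4-Pik3c3, scored 106 and 120 at 2195 kb from the nearest TSS. The last, in Pou3f2-Mms22l, scored 123 and 117.

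The spread of members within a stretch differed among the 10 with the most. In Adgrl2-Adgrl4, 42 of 51 members (82.4%) were on the Adgrl2 side of the midpoint of the stretch. In Nr2f1-Arrdc3, 44 of 61 (72.1%) were on the Nr2f1 side, in Zeb2-Acvr2a 46 of 75 (61.3%) on the Zeb2 side, and in Sel1l-Flrt2 only 21 of 72 (29.2%) on the Sel1l side. The first-named gene's side held 26 of 52 members in Celf4-Pik3c3, 31 of 58 (53.4%) in Kcnj2-Sox9 and 30 of 57 (52.6%) in Slc10a2-Efnb2. It held 23 of 50 (46.0%) in Slc4a3-Epha4, 31 of 70 (44.3%) in Pcdh20-Pcdh9 and 34 of 56 (60.7%) in Zfp608-Gramd3. Members thus lay mostly to 1 side in some of these stretches and about evenly in others.

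**Figure D3:**
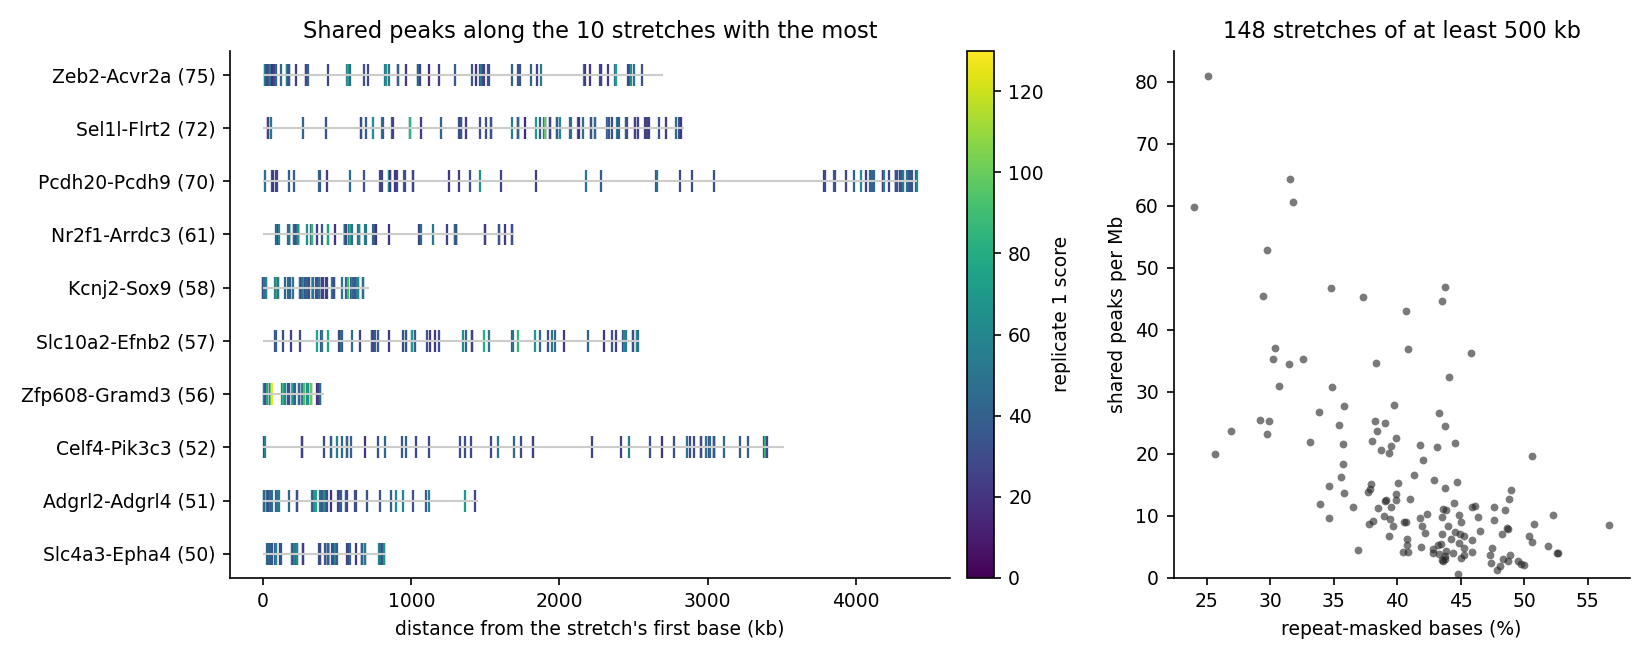
Left: position of each shared peak (ticks, coloured by replicate 1 score) along the 10 desert stretches with the most members, in kb from the first base of the stretch, with the member count in brackets. Right: shared peaks per Mb against the share of repeat-masked bases (%) in the 148 stretches of at least 500 kb. Ticks crowd in Kcnj2-Sox9 and Zfp608-Gramd3, lie mostly at the Adgrl2 end of Adgrl2-Adgrl4, and density falls with repeat content (Spearman rho of -0.64).

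Stretches were also grouped by their flanking genes, with lists that were chosen with earlier results known and so are no independent evidence. The regulator list has 272 genes of transcription and chromatin, of which 268 were found on chromosomes 1 to 19, and 42 of these flank 42 stretches. These 42 stretches held 792 members in 22.0 Mb, 36.0 per Mb, and 41 of them had at least 1. In the replicate lists they had 47.2 and 53.0 peaks per Mb. Density varied widely within the list, from 0 beside Zfp804b, 4.21 beside Mef2c and 7.56 beside Rorb to 137.3 members per Mb beside Zfp608. Stretches beside genes of adhesion and axon guidance were the most extensive, 93 stretches with 111.8 Mb, and held 1380 members at 12.3 per Mb (17.1 and 20.9 in the lists). Cdh18-Basp1, with 27 members, and Ets1-Kirrel3, with 20, are flanked by genes of both lists and were counted in each group. The 159 stretches beside genes of no list had 1294 members in 97.1 Mb, 13.3 per Mb (18.7 and 23.0). Stretches beside ligand genes, 7 with 2.64 Mb, had 17.1 per Mb. Of their 45 members 21 lay beside Inhba, 11 beside Nrg3, 9 beside Jag1 and 4 beside Fgf9, while the short stretches beside Bmp2 and Gdf6 held 0. The list of smell and pheromone receptors flanks 2 stretches with 33.0 members per Mb, and all 28 of these members were in Olfr1507-Dad1, the T cell receptor stretch described above. The spread among stretches within a list was wide, and no difference between the lists of genes was tested. Repeat content differed as well: 37.8% of bases in regulator stretches, 41.7% in adhesion stretches and 42.6% in those of no list. Length differed too, since the 42 regulator stretches covered 22.0 Mb and the 93 adhesion stretches, longer on average, 111.8 Mb. Over all deserts, density was 17.7 per Mb at 500 to 1000 kb from a TSS and 8.94 beyond 1000 kb. The parts of repeat content and of length in the densities were not tested. Median member scores were 39 and 46 in regulator stretches, 35 and 42 in adhesion stretches and 34 and 40.5 elsewhere.

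Among the adhesion genes, counts were led by Flrt2, whose flanking stretches held 108 members, 65 of them nearer to its TSSs than to any other protein-coding gene's. Adgrl2, a latrophilin of synapse formation, had 91 in its flanking stretches and 63 nearest, with median scores of 38 and 46 for the latter. Tenm3, a teneurin, had 45 nearest and up to 2334 kb away. Epha7 had 36 and Cdh11, a cadherin of mesenchyme, 28, with medians of 44.5 and 55.5. Low densities occurred in the same list: stretches at Pcdh7 had 4.75 members per Mb, at Cntnap5b 4.49 and at Cadm2 4.49. The adhesion list, like the regulator list, thus covered both dense and nearly empty deserts.

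Desert peaks stood more alone than other distal peaks. The median distance to the nearest shared peak was 7120 bp, against 2000 bp at 1 to 500 kb and 3100 bp at 250 to 500 kb. Another shared peak lay within 10 kb of 1922 members (55.0%, Wilson interval 53.4 to 56.7%), compared with 82.1% at 1 to 500 kb. Density was lower too, 15.03 against 57.6 shared peaks per Mb, and its part in the spacing was not tested. Chained at gaps of up to 10 kb, the members formed 2300 groups, of which 1575 were single peaks (45.1% of members). Groups of 3 or more numbered 269 and held 1005 members (28.8%). The biggest was a run of 11 peaks over 13.9 kb in Zfp608-Gramd3 with median scores of 57 and 63, and a second run there had 10. Runs of 8 were found in Bcl11a-5730522E02Rik, in Zfp608-Gramd3, in Zeb2-Acvr2a 1548 kb from Zeb2 and in Tmem38b-Zfp462, the last with the highest medians, 64.5 and 71. There were 174 members whose 150 bp overlapped another member's, so these do not stand for separate sites.

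Desert peaks were GC-rich islands in AT-rich sequence. Their mean GC content was 46.7% (SD over peaks 5.93), while desert sequence as a whole had 37.6%. Peaks at 1 to 500 kb had 51.9% in sequence of 42.1%. Around member centres GC rose from 37.6% at 475 to 500 bp before it to 47.9% at the centre. CpG dinucleotides were scarce, with an observed to expected ratio of 0.209 against 0.296 at 1 to 500 kb. Repeat-masked bases made up 11.0% of the members' sequence, near the 10.1% of nearer peaks, although 41.7% of desert sequence was repeats against 33.2% of nearer sequence. The 181 members (5.18%) of mostly repeat sequence scored a median of 25 and 30, lower than the 36 and 43 of the other 3311.

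CTCF sites were in a small part of desert peaks. The core matched in 99 members (2.84%, Wilson interval 2.33 to 3.44%), against 5.08% of shared peaks at 1 to 500 kb (4.96 to 5.21%). The share was 6.37% at 1 to 10 kb and 2.18% at 250 to 500 kb (1.89 to 2.52%), so it did not fall further beyond 500 kb. Over all desert peaks of a list, shared or not, it was 2.06% in replicate 1 and 1.87% in replicate 2. Among the 903 members at or above the list median score in both replicates it was 6.53%. Outside peaks the core was nearly absent, in 215 of 1534346 peak-free 150-bp windows tiling the deserts (0.014%). Of the matches within 500 bp of a member's centre, 91 lay within 50 bp of it and 4 at 250 to 500 bp. Members with the core scored a median of 49 and 60, those without 35 and 42. The share was therefore also compared within score classes. In the replicate 1 list it was 5.31% of desert and 5.88% of nearer peaks at scores of 50 to 69, and 8.37% (5.54 to 12.5%) and 11.4% (11.0 to 11.8%) at 70 or more. At 20 to 29 it was 0.709% and 1.04%. In the replicate 2 list it was 7.80% (5.58 to 10.8%) and 10.3% (10.04 to 10.6%) at 70 or more. Desert peaks had the higher share at 40 to 49 in replicate 1, 3.33% against 2.37%. They also had it at 50 to 69 in replicate 2, 4.55% against 3.21%, and had the lower share in all other classes. In both lists the share was higher at higher scores, and the intervals of desert and nearer peaks overlapped in each of the 6 score classes.

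The E-boxes CAGATG and CAGCTG matched in more members than any other of the 24 motifs searched, which differ in length. CAGATG, an E-box that proneural factors such as Neurog2 bind, matched in 808 members (23.1%, Wilson interval 21.8 to 24.6%), against 18.6% of peaks at 1 to 500 kb and 10.3% of the peak-free desert windows. At 250 to 500 kb CAGATG was in 21.1% of shared peaks (20.2 to 22.0%). CAGCTG, bound by many E proteins and myogenic factors, matched in 661 members (18.9%), about as often as in nearer peaks (18.5%), and in 3.51% of the windows. At the centre of members, within 50 bp, CAGCTG occurred 1.55 times per kb and at 250 to 500 bp 0.342 times. For CAGATG these rates were 1.95 and 0.692 per kb.

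The MEIS motif TGACAG, the site of MEIS and PREP homeodomain proteins, matched in 609 members (17.4%) and 14.2% of nearer peaks, with 8.38% of windows. The nuclear receptor motif AGGTCA, also the core of sites for Nr2f1 and Nr2f2, was in 525 members (15.03%), 12.8% of nearer peaks and 6.85% of windows. HOX-PBX (TGATTNAT) was in 4.93% of members, 3.23% of nearer peaks and 3.602% of windows, and TEAD (GGAATG) in 11.6%, 11.02% and 8.29%. In the adjacent peaks at 250 to 500 kb the shares were closer to those of members, with MEIS in 15.8%, AGGTCA in 14.6% and HOX-PBX in 4.401%. TEAD was in 12.07% there, above its share in members. For each of these motifs the Wilson intervals of members and adjacent peaks overlapped. The EBF motif was in 43 members (1.23%) against 0.124% of windows, and NFI in 23 (0.659%) against 0.019%, each at about the rate of nearer peaks (1.27% and 0.648%). Different motifs of the 9 marked in the sequences overlapped in 123 members (3.52%), most often CAGCTG with MEIS, in 47. The RFX motif was in 44 members (1.26%), against 1.40% of nearer peaks and 0.423% of windows.

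The SOX, GATA and homeodomain motifs were commoner in desert peaks than in shared peaks at 1 to 500 kb and yet rarer than in the windows. SOX (AACAAT) matched in 9.65% of members, 6.24% of nearer peaks and 14.6% of windows. The GATA family motif, searched as AGATAA, matched in 6.96%, 5.24% and 12.4%, and the homeodomain core TAATTA in 4.64%, 3.31% and 7.68%. Against the adjacent peaks at 250 to 500 kb the differences were smaller. There SOX matched in 7.84% and GATA in 6.10% (Wilson interval 5.60 to 6.64%, members 6.16 to 7.85%). The homeodomain core matched in 4.83% there, slightly above the share in members. SP/KLF and TFAP2 ran the other way. SP/KLF (GGGCGG) was in 3.01% of members against 8.40% of nearer peaks and 0.538% of windows, and TFAP2 (GCCNNNGGC) in 4.04%, 6.65% and 0.888%. The CATATG E-box (4.30% of members, 2.79% of nearer peaks, 6.02% of windows) had the same order as SOX. AP-1 (TGANTCA) was in 5.93% of members, TCF/LEF (CTTTGAT) in 3.58%, YY1 (AAGATGG) in 2.46%, FOX (TGTTTAC) in 2.21%, POU (ATGCAAAT) in 1.17% and ETS (CCGGAAG) in 0.659%, and in nearer peaks they were in 5.29%, 2.72%, 2.51%, 1.95%, 1.01% and 1.47%. The MEF2 motif was in 14 members (0.401%), 0.274% of nearer peaks and 0.399% of windows, and the NRF1 motif in 1 member. Base composition moved with these shares, at a mean GC of 46.7% in members, 51.9% in nearer peaks and 37.5% in the windows, and its part in them was not tested. A match says only that these letters are present, not that a factor is bound.

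**Figure D4:**
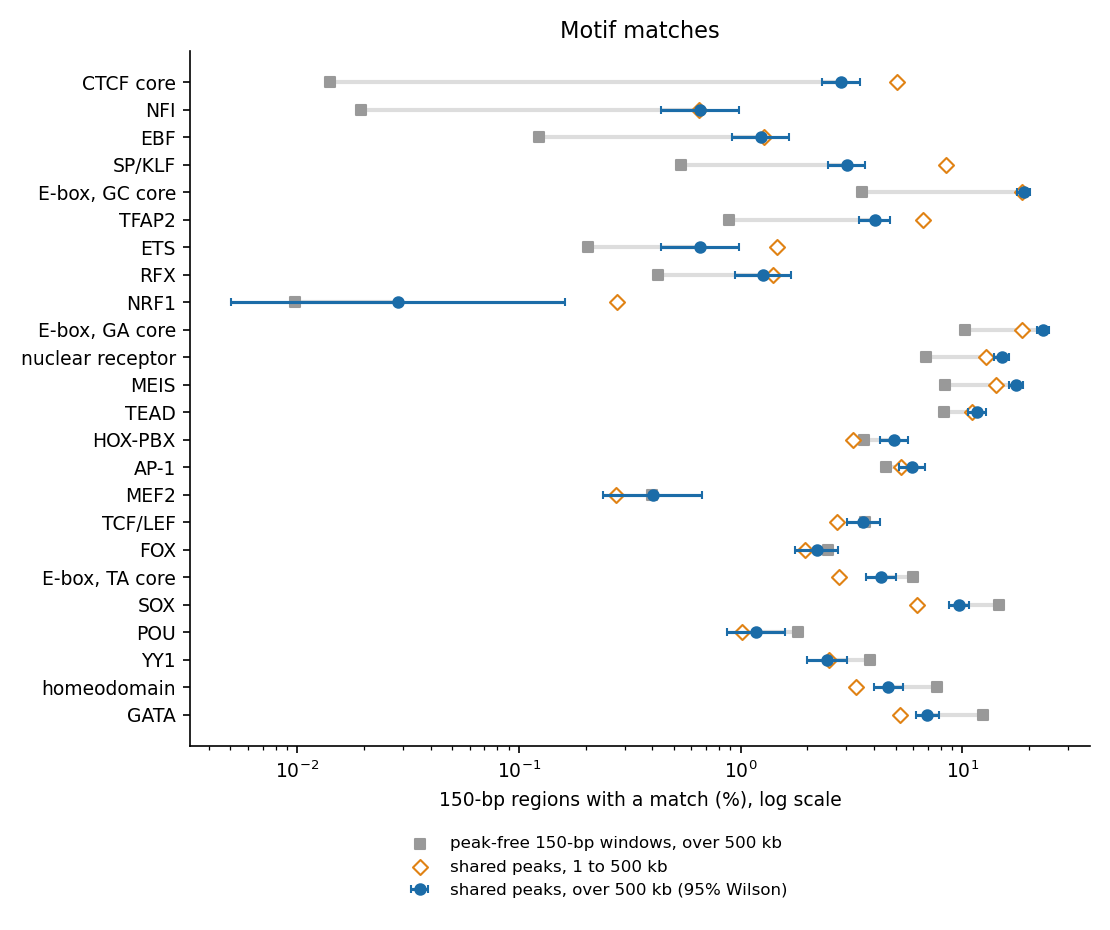
Share of 150-bp regions with a match to each of 24 motifs (%, log axis) in desert members (circles, Wilson 95% intervals), in shared peaks 1 to 500 kb from a TSS (diamonds) and in peak-free desert windows (squares), ordered by the ratio of members to windows. CTCF has the widest gap, 2.84% of members against 0.014% of windows, while SOX, homeodomain and GATA matches are commoner in the windows.

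**Figure D5:**
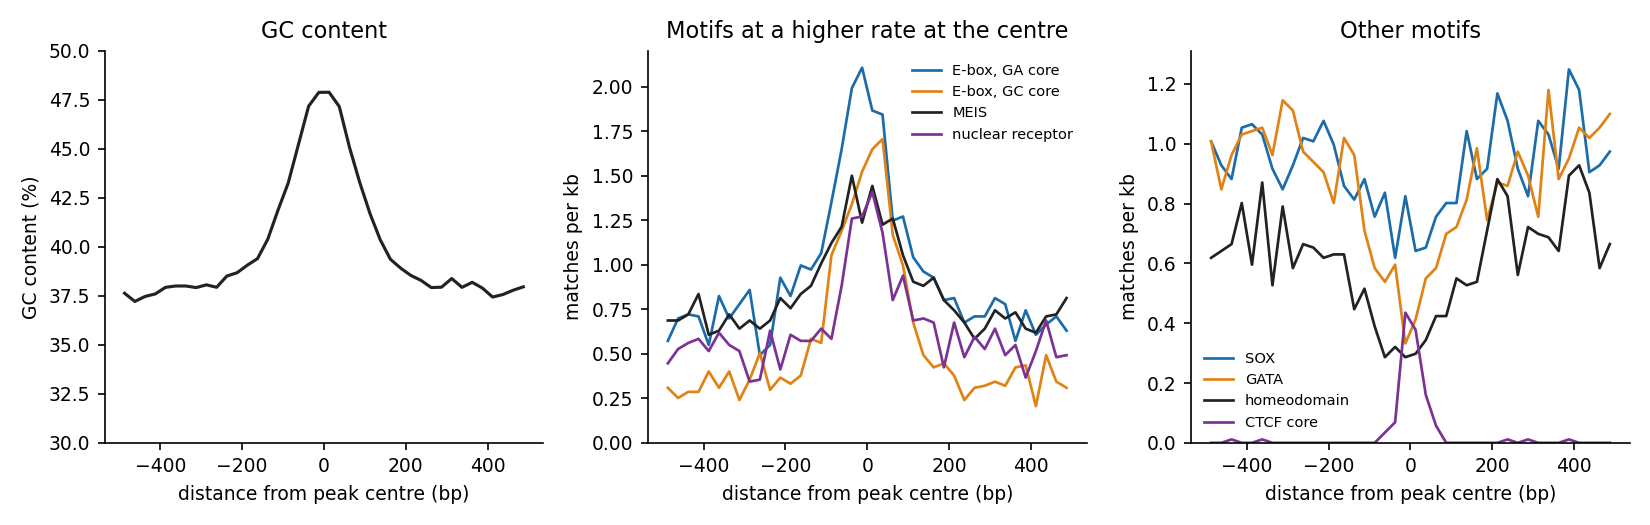
GC content (%, axis from 30%) and motif matches per kb in 25-bp bins from 500 bp before to 500 bp after the centres of the 3492 members. The GA core E-box is CAGATG and the GC core E-box CAGCTG. GC and the E-box, MEIS and nuclear receptor rates rise at the centre, CTCF is confined almost entirely to the central 100 bp with 91 matches within 50 bp, and GATA and homeodomain rates dip there.

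All 19 chromosomes held members, from 36 on chromosome 19 to 338 on chromosome 3. By length of desert sequence, chromosome 18 was the richest with 24.04 per Mb (234 members), ahead of chromosome 13 with 22.3 and chromosome 2 with 20.9. Chromosome 6 was the poorest with 6.11 per Mb, 76 members in 12.4 Mb. The Zfp608-Gramd3 stretch alone gave 56 of the 234 members of chromosome 18.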

How the data were processed

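Per the labels, the samples were 2 biological replicates of whole embryo at age 11 days, and per the file headers each deposited list was called from the filtered mm10 alignments of 1 replicate. The aligner and the peak caller were not given in the sources used here. The deposited peaks carry a score, a whole number up to 150, and deposited hotspots carry a −log10 q value with a ceiling of 100. No read counts were used, so depth is unknown.

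Peaks on chromosomes 1 to 19 were placed by their midpoint against all TSSs of protein-coding genes of GENCODE M21, and sequences and repeats (lower-case bases) came from GRCm38.p6, the same build. Density was peaks per Mb of sequence other than N. Motifs were searched on both strands, in peaks and in 150-bp windows tiling the deserts that touch no peak of either list. Scripts used Python 3.11.15, numpy 2.4.6, pandas 2.3.3 and scipy 1.17.1, and were tested on simulated intervals. Shares have Wilson 95% intervals, and means an SD over the 2 lists. No test was run, since there is 1 group, and peaks are not replicates.

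The members, motifs and gene lists were chosen with earlier results of these data known. Named were the 10 members with the best mean rank, the farthest, the 10 stretches with the most members, the 10 densest of at least 500 kb, the longest and the longest empty one, their flanking genes, the host genes with the most members and genes of the lists. Sequences of chromosome 18 were not printed, and 1 stretch is not reported here. For each of 6 measures the alternatives were other distances, overlaps, TSS sets, a score filter, and each list alone.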

Additional observations from a re-analysis of the deposited data

How the results depend on the processing

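Of 48 values from alternatives, 22 were classed as the same as the value reported and 26 as moved. The classes did not follow the spread between replicates in every case. The count in the replicate 1 list alone, 4798, was classed as the same, though further from 3492 than the replicate SD of 688. The matching density, 20.7 against 15.03 per Mb (SD 2.96), was classed as moved. Each alternative that moved a value chose other peaks by its construction. No paired analysis was possible because there is only 1 group. A threshold of 250 kb gave 11603 peaks at 24.3 per Mb, 10.5% of them inside protein-coding genes, with a mean GC of 48.2%. A threshold of 1000 kb gave 635 peaks at 8.94 per Mb, 0% inside genes and a GC of 45.3%. Counting lncRNA TSSs too left 607 peaks at 10.5 per Mb, 5.93% inside protein-coding genes, 3.46% with the CTCF core and a GC of 45.5%. Taking only TSSs of protein_coding transcripts put 8.57% of peaks inside genes. Requiring at least the list's median score in both replicates left 903 peaks at 3.89 per Mb, with a median score of 59, the CTCF core in 6.53% and a GC of 48.7%. With each replicate list alone the count was 4798 to 5771, the density 20.7 to 24.8 per Mb, the CTCF share 1.87 to 2.06% and the GC 46.3 to 46.5%. The unknown depth limits which weak sites could be called, and low-scoring peaks were the ones most often in 1 list only.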
